A study of Mus musculus with 27 samples.

Results

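The SLAM family receptor genes (Cd48, Cd84, Ly9, Slamf1, Slamf6, Slamf7, Slamf8 and Slamf9) were followed in bulk RNA-seq of mouse brain. These members were chosen by gene name as a receptor family, and all 8 were found among the 55487 genes of the count matrix. Male wild-type C57Bl/6J mice, 8 weeks old, had been infused through a cannula in the right lateral ventricle with PBS, a control IgG or α-IgLON5 AABs for 14 days at 0.25 µl per hour, and hippocampus and cortex were then taken from the contralateral hemisphere. PBS was represented by 5 hippocampi and 5 cortices, the control IgG by 4 hippocampi and 5 cortices, and α-IgLON5 AABs by 4 hippocampi and 4 cortices, which were those of mice 8, 9, 16 and 17. All mice had the same strain, sex, age and surgery in the labels, and the groups differed in the infused fluid and, as given below, in the range of their mouse numbers. The antibody was α-IgLON5#1, a polyclonal pool purified from patient plasma, and the groups are called PBS, IgG and IgLON5 here. The labels call the control a monoclonal human IgG that does not react (mCtrl), whereas the study's methods give IgG from healthy control serum (pCtrl). The IgG and IgLON5 groups therefore stood for 1 antibody preparation each.

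SLAM family receptors are immunoglobulin-like proteins on the surface of blood-derived cells. Most bind a copy of themselves on the neighbouring cell, while Cd48 is a lipid-anchored protein that serves as ligand for the related receptor Cd244a and for Cd2. Ly9, Cd84, Slamf1, Slamf6 and Slamf7 carry tyrosine switch motifs in their tails. These recruit a small adapter, Sh2d1a or Sh2d1b1, or, when adapters are lacking, phosphatases. Slamf8 and Slamf9 have short tails without such motifs and are known mainly from myeloid cells, where Slamf8 restrains the phagocyte NADPH oxidase. In the brain the family is little expressed by neurons, and its transcripts are a feature of microglia, macrophages and infiltrating leukocytes.

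The members lay on chromosome 1 of GRCm38, at 171588624 to 172590568, over 1001945 bp (GENCODE annotation, all protein-coding). From the lower end the order was Ly9 (chr1:171588624-171607410, minus strand), Slamf7 (chr1:171632403-171653035, minus), Cd48 (chr1:171682009-171705258, plus), Slamf1 (chr1:171767127-171801184, plus), Cd84 (chr1:171839697-171890718, plus) and Slamf6 (chr1:171917515-171953170, plus). After a gap of 522187 bp came Slamf9 (chr1:172475358-172478575, plus) and Slamf8 (chr1:172581758-172590568, minus). The first 6 genes were thus neighbours, and the last 2 formed a separate pair within which the gap was 103182 bp. The Slamf7 gene shared 423 exonic bases with the antisense transcript Gm37787, and since the strand setting of the counting is not given in the sources used here, reads of the pair cannot be told apart. Ly9 overlapped Cd244a on the other strand in introns, with 0 shared exonic bases.

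RefSeq start regions of 300 bases (GRCm38.p6, 250 bases before to 50 after the start) were matched for 7 of the 8 members, all but Ly9. The regions of 4 members are shown because they contrast the members of the separate pair and the most abundant member (Slamf8, Slamf9 and Cd84) with the member that was not called in any comparison (Slamf1). Capitals mark 5 short motifs on either strand: the PU.1 core GAGGAA, an ETS-IRF composite GGAANNGAA, the interferon-response core GAAANNGAA, the AP-1 site TGANTCA and the kappa-B core GGGANNTTC. They are read 5′ to 3′ along the gene. The letters of the first 3 motifs share GGAA or GAA, so 1 stretch can match more than 1 of them.
Slamf8 (chr1:172590519-172590818, minus strand): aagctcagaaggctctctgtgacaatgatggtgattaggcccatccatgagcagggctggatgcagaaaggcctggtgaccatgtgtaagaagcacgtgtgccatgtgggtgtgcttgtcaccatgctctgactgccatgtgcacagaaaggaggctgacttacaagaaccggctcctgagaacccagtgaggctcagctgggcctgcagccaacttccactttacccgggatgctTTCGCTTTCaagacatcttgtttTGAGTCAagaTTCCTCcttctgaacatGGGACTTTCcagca
Slamf9 (chr1:172475110-172475409, plus strand): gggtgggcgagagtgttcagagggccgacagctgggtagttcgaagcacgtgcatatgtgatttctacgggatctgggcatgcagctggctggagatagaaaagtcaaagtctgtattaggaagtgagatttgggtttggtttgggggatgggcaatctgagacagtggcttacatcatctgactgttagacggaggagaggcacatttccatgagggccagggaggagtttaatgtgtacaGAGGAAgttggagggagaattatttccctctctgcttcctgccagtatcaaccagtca
Cd84 (chr1:171839447-171839746, plus strand): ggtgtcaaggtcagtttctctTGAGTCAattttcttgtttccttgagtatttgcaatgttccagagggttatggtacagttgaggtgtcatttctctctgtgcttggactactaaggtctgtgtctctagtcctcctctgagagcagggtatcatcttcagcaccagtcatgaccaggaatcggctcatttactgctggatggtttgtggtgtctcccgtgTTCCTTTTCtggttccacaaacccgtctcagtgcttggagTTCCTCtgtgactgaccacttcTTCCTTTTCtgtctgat
Slamf1 (chr1:171766882-171767181, plus strand): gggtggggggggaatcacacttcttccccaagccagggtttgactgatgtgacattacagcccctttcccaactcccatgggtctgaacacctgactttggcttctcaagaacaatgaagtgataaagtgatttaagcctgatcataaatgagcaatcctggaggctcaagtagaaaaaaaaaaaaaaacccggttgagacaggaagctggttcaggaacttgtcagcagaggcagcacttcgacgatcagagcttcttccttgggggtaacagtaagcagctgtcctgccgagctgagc
The PU.1 core, the recognition core of a factor that defines myeloid cells, occurred in the Slamf8, Slamf9 and Cd84 regions and in 28.3% of all 32851 RefSeq start regions of this length. The AP-1 site was found in Slamf8, Cd84 and Slamf7 (7.81% of all regions). The interferon-response core was found in Slamf8 and Cd84 (8.56%), and the kappa-B core in Slamf8 alone of the 7 (3.94%). No match to the ETS-IRF composite was found in the 7 regions (8.24% of all). The Slamf1, Cd48 and Slamf6 windows held none of the 5 letter strings. These matches describe letters only.

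The 27 libraries held 19385642 to 58550621 counts. In hippocampus depth ran with treatment, at 19428512 to 32776892 counts in IgLON5 and 39479753 to 52212204 in IgG without overlap, while PBS hippocampus (29098828 to 58550621) overlapped both, and in cortex the 3 groups overlapped. The part of depth in the members' differences was not tested. The labels give the cell type as neurons. The summed level of 6 neuronal markers was 4997 to 5659 CPM (counts scaled to library size) in PBS hippocampus, but 10 microglial markers summed to 332 to 404 CPM and none of them was at 0 in any group, so the libraries are described here as whole tissue. In such bulk samples, more cells of a type and more RNA per cell cannot be told apart. All IgLON5 mice carried numbers from 8 to 17, whereas IgG and PBS mice carried numbers from 10 to 75, and the labels do not say what the numbers stand for.

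Infusion of α-IgLON5 AABs was accompanied by higher levels of nearly the whole family in both tissues. A gene was called when the adjusted p of edgeR's quasi-likelihood test, corrected over all 20271 genes tested, was below 0.05 and the fold exceeded 2. In hippocampus, 6 of 8 members were called higher in IgLON5 than in IgG, against 2.21% of all genes tested, and 7 of 8 were called higher than in PBS, against 2.56%. In cortex the numbers were 6 of 8 against IgG (2.14% of all genes) and 7 of 8 against PBS (2.24%). No member was called lower in these comparisons. The members' median log2 difference from IgG was 2.07 in hippocampus and 2.14 in cortex, while the median over all genes was 0.00 and -0.01. The IgG and PBS comparisons share the IgLON5 libraries. All 8 members passed the filter of 10 counts in 4 libraries, but Slamf1 and Slamf8 would not have passed in the 19 control libraries alone, so that Slamf8 entered the test through the IgLON5 libraries. Of the 6 members that passed in the controls alone, 5 were called against IgG in each tissue.

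Counted by libraries, 6 members in hippocampus and 7 in cortex had every IgLON5 library above every IgG library, against 6.68% and 3.68% of all genes tested. The exceptions were Slamf7 and Slamf1 in hippocampus and Slamf1 in cortex. Slamf8, which passed the count filter through the IgLON5 libraries, is in both counts. With mice numbered 8 to 17 alone (2 IgG hippocampi and 3 IgG cortices), 3 members were called in hippocampus (Ly9, Cd48 and Slamf6), against 0.242% of all genes in that fit, and 2 in cortex (Ly9 and Cd48), against 0.0444%.

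**Figure D1:**
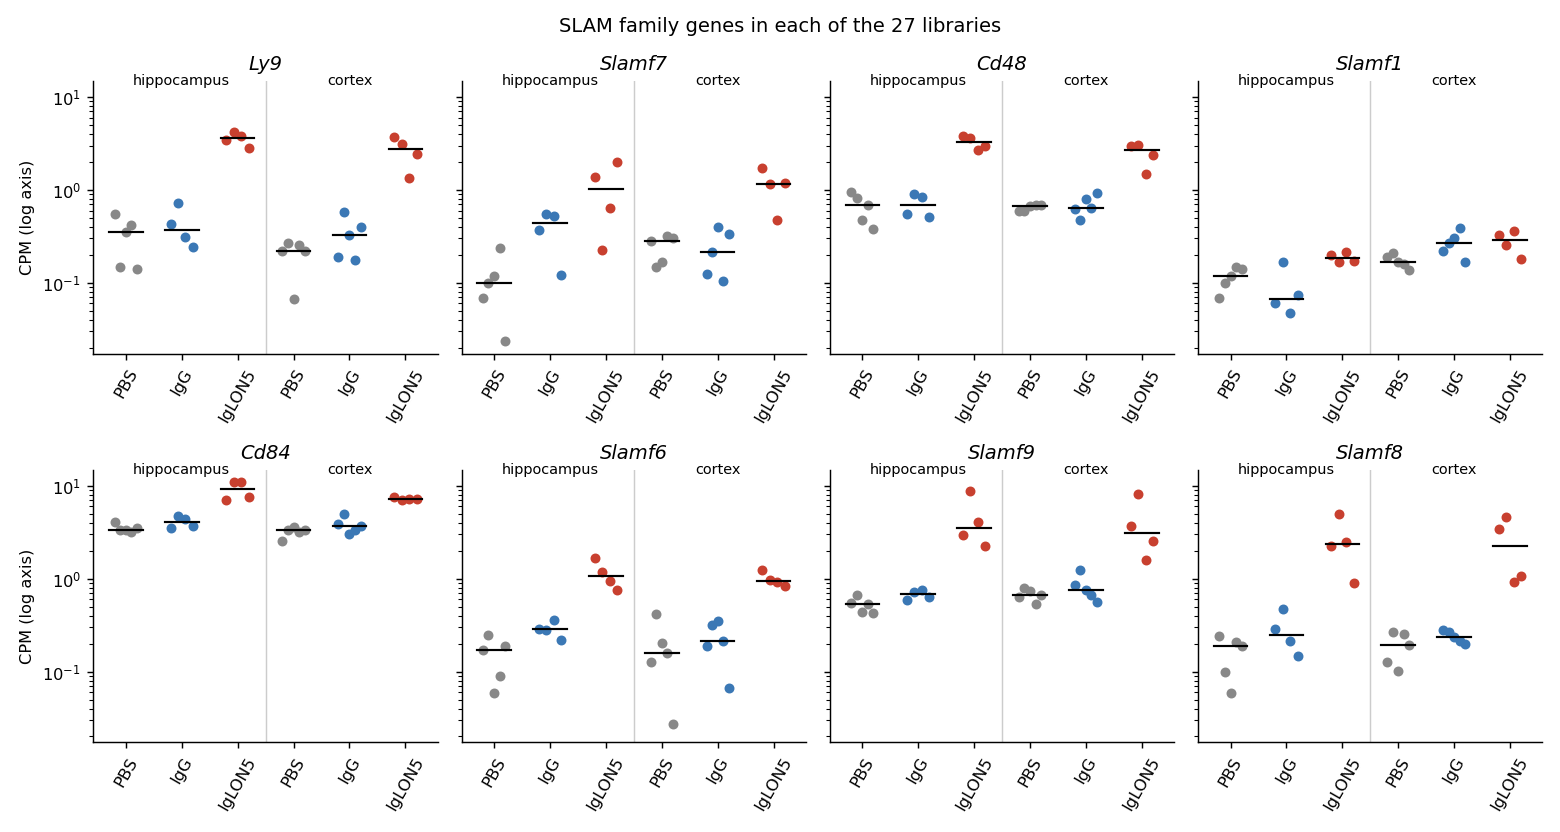
Level of each SLAM family gene in CPM (log axis) in the 27 libraries, with 1 point per library and a bar at the group median, in hippocampus (left of the line) and cortex (right of it). The IgLON5 libraries (red) lie above all IgG libraries (blue) for 6 members in hippocampus and 7 in cortex, and Slamf1 overlaps in both tissues.

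Cd48, the ligand of Cd244a, rose in both tissues. In hippocampus its level was 3.79, 3.6, 2.7 and 2.98 CPM in IgLON5 mice 8, 9, 16 and 17, against 0.552, 0.903, 0.833 and 0.516 CPM in the 4 IgG libraries and 0.377 to 0.955 CPM in PBS. The IgLON5 libraries lay above all controls with wide separation. The log2 difference from IgG was 2.20 (SE 0.25, adjusted p = 1.90e-06). In cortex the 4 IgLON5 libraries had 2.93, 3.07, 1.5 and 2.4 CPM, with mouse 16 lowest, and the 5 IgG libraries had 0.479 to 0.931 CPM. There the log2 difference from IgG was 1.80 (SE 0.24, adjusted p = 3.14e-05). From PBS, Cd48 differed by 2.29 (SE 0.24, adjusted p = 2.46e-07) in hippocampus and 1.92 (SE 0.24, adjusted p = 9.92e-06) in cortex.

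Ly9, a self-binding receptor of lymphoid and myeloid cells, showed a log2 difference from IgG of 3.02 (SE 0.37, adjusted p = 5.42e-06) in hippocampus and 3.02 (SE 0.39, adjusted p = 1.45e-05) in cortex, about 8.1-fold in both. Its hippocampal level was 3.45, 4.17, 3.77 and 2.81 CPM in the 4 IgLON5 libraries and 0.429, 0.715, 0.309 and 0.246 CPM in the 4 IgG libraries. The lowest IgLON5 library stood well above the highest IgG library. In cortex the values were 3.72, 3.1, 1.33 and 2.44 CPM in IgLON5 and 0.176 to 0.586 CPM in IgG, so that mouse 16 was again the lowest of its group. PBS libraries had 0.141 to 0.546 CPM in hippocampus and 0.0672 to 0.266 CPM in cortex.

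Cd84, a self-binding receptor of macrophages, mast cells, platelets and lymphocytes, was the most abundant member by CPM in every group and had the smallest called difference. Hippocampal levels were 7.09, 10.9, 10.9 and 7.51 CPM in IgLON5 mice 8, 9, 16 and 17 and 3.49, 4.72, 4.33 and 3.71 CPM in IgG. Mice 9 and 16 stood above mice 8 and 17, and all 4 stood above the controls. The log2 difference was 1.16 (SE 0.15, adjusted p = 1.05e-05). In cortex the IgLON5 libraries were closely spaced at 7.55, 7.07, 7.17 and 7.21 CPM, against 3.88, 5.0, 3.04, 3.37 and 3.69 CPM in IgG, and the difference of 0.95 (SE 0.14, adjusted p = 1.20e-04) passed the p threshold but not the fold of 2. Without the IgG cortex of mouse 11, the highest of its group, it was 1.05 (adjusted p = 6.34e-05) and was called. Against PBS, Cd84 was called in hippocampus at 1.39 (SE 0.14, adjusted p = 1.94e-07) and in cortex at 1.18 (SE 0.14, adjusted p = 6.98e-06).

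Slamf6, a self-binding receptor of lymphocytes and NK cells, had 1.67, 1.18, 0.95 and 0.745 CPM in the IgLON5 hippocampi and 0.286, 0.282, 0.357 and 0.221 CPM in the IgG hippocampi. The groups did not overlap, and the log2 difference was 1.95 (SE 0.40, adjusted p = 0.00265). In cortex the IgLON5 libraries had 1.22, 0.974, 0.929 and 0.825 CPM and the IgG libraries 0.0665 to 0.353 CPM, again without overlap. The cortical difference was 2.09 (SE 0.41, adjusted p = 0.00141), and with mice 8 to 17 alone it was 1.77 (adjusted p = 0.0615). The control levels rested on few counts, with 2 to 15 counts per IgG cortex.

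Slamf7, which takes part in the uptake of blood-derived tumour cells by macrophages and is abundant on plasma cells, behaved unevenly between mice. In hippocampus mice 8 and 17 had 1.38 and 1.98 CPM, mouse 16 had 0.644 CPM and mouse 9 had 0.225 CPM (4 counts). The IgG hippocampi had 0.368, 0.545, 0.523 and 0.123 CPM, so mouse 9 lay within the IgG range and the other 3 lay above it. The log2 difference of 1.46 (SE 0.50, adjusted p = 0.0703) was not called. Without IgLON5 mouse 9 it was 1.75 (adjusted p = 0.0335) and without mouse 16 it was 1.65 (adjusted p = 0.0407), both called.
Against PBS, at 0.0235 to 0.237 CPM, the hippocampal difference was 3.32 (SE 0.61, adjusted p = 2.01e-04). In cortex the IgLON5 libraries had 1.71, 1.15, 0.476 and 1.18 CPM, all above the IgG libraries at 0.105 to 0.40 CPM. The cortical difference from IgG was 2.19 (SE 0.52, adjusted p = 0.00933). Without mouse 8 it was 1.92 (adjusted p = 0.0669) against IgG and 1.92 (adjusted p = 0.0577) against PBS, and neither was called; with mice 8 to 17 alone it was 2.12 (adjusted p = 0.21).

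Slamf1, a self-binding receptor of activated lymphocytes, dendritic cells and macrophages that is also found on phagosomes, was the member that was not called in any comparison. Hippocampal levels were 0.197, 0.169, 0.215 and 0.172 CPM in IgLON5 (3 to 7 counts) and 0.0613, 0.169, 0.0476 and 0.0737 CPM in IgG (2 to 9 counts). The IgG hippocampus of mouse 15 lay at the lower edge of the IgLON5 range and the other 3 lay below it. The log2 difference was 1.03 (SE 0.48, adjusted p = 0.167), with an interval of ±2 SE from 0.08 to 1.99; without IgG mouse 15 it was 1.58 (adjusted p = 0.0475) and was called. In cortex the IgLON5 libraries had 0.326, 0.253, 0.357 and 0.179 CPM and the IgG libraries 0.219, 0.266, 0.306, 0.386 and 0.166 CPM, with almost full overlap. The cortical difference was 0.03 (SE 0.31, adjusted p = 0.996), with an interval from -0.59 to 0.66. At 3 to 15 counts per IgLON5 library, a difference of the size seen in Cd84 lay outside this cortical interval and inside the hippocampal interval.

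Slamf8, the short-tailed member that restrains the phagocyte oxidase, had the highest fitted fold of the family against IgG and against PBS in both tissues, by less than its SE over Ly9 in each. Slamf8 reached 10 counts in 3 of the 19 control libraries and passed the filter through the IgLON5 libraries. Its folds rest on these low control counts. Its hippocampal levels were 2.26, 4.9, 2.45 and 0.888 CPM in IgLON5 mice 8, 9, 16 and 17 and 0.286, 0.47, 0.214 and 0.147 CPM in the IgG libraries. Mouse 9 was highest and mouse 17 lowest, and even mouse 17 stood above every control hippocampus. The log2 difference was 3.15 (SE 0.50, adjusted p = 1.87e-04), or 8.86-fold. In cortex the values were 3.45, 4.65, 0.929 and 1.06 CPM against 0.20 to 0.282 CPM, a log2 difference of 3.36 (SE 0.53, adjusted p = 9.98e-05). The 4 cortices formed a high pair (mice 8 and 9) and a low pair (mice 16 and 17). With mice 8 to 17 alone, where Slamf8 did not lead in hippocampus, the difference was 2.74 (adjusted p = 0.166) in hippocampus and 3.25 (adjusted p = 0.0977) in cortex.

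Slamf9, the other short-tailed member, had 2.95, 8.79, 4.11 and 2.26 CPM in the IgLON5 hippocampi and 0.593, 0.715, 0.761 and 0.638 CPM in the IgG hippocampi. All IgLON5 libraries lay above the controls, and mouse 9 stood far above the other 3. The log2 difference was 2.71 (SE 0.39, adjusted p = 6.44e-05). In cortex the levels were 3.72, 8.05, 1.57 and 2.55 CPM in IgLON5 and 0.565 to 1.22 CPM in IgG, again with mouse 9 highest. The cortical difference was 2.30 (SE 0.37, adjusted p = 2.80e-04), and without mouse 9 it was 1.71 (adjusted p = 0.00204) against IgG and 1.95 (adjusted p = 4.56e-04) against PBS. With mice 8 to 17 alone it was 2.76 (adjusted p = 0.127) in hippocampus and 2.10 (adjusted p = 0.16) in cortex, and Cd84 in hippocampus was then 1.14 (adjusted p = 0.0667).

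**Figure D2:**
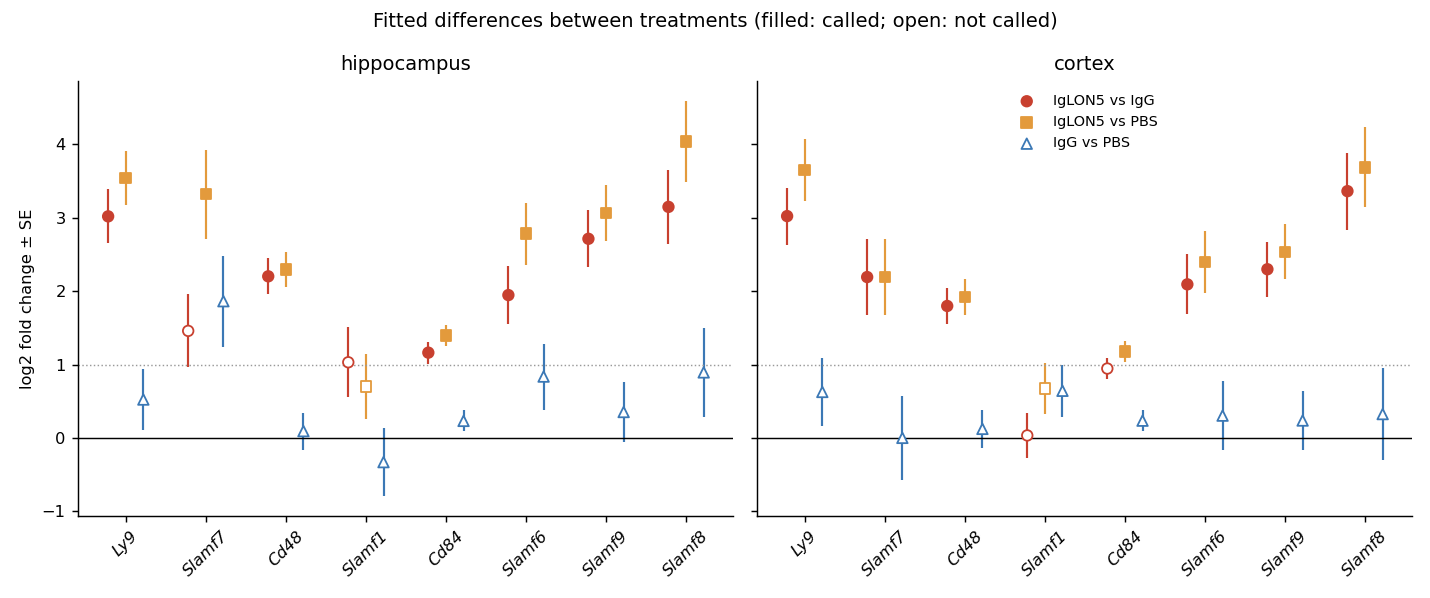
Fitted log2 fold change of each member with its SE, for IgLON5 against IgG (circles), IgLON5 against PBS (squares) and IgG against PBS (triangles), in hippocampus and cortex. Filled symbols are called, open symbols are not, and the dotted line marks a fold of 2. Slamf8 and Ly9 stand highest against IgG, Slamf1 is open throughout, and all IgG against PBS symbols are open. Slamf8 passed the count filter through the IgLON5 libraries.

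The control antibody itself was compared with PBS in the same fit. None of the 8 members was called in hippocampus, against 0.0641% of all genes, or in cortex, against 0%. At an unadjusted p below 0.05, 1 of 8 members passed in hippocampus, against 14% of all genes, and 0 in cortex, against 8.14%, so neither share stood above that of all genes. DESeq2 called 0 in both. Most fitted differences were above 0. In hippocampus 7 of 8 members had a higher fitted level in IgG than in PBS, with a median log2 difference of 0.44, and in cortex 8 of 8 did, with a median of 0.27. Over all genes tested 50.7% and 49.0% were higher, with medians within 0.01 of 0. The 8 in cortex include Slamf7 at 0.00 (SE 0.58). The signs come from the same libraries and were not tested. The member with an unadjusted p below 0.05 was Slamf7, whose hippocampal levels were 0.368, 0.545, 0.523 and 0.123 CPM in IgG and 0.0682, 0.0984, 0.117, 0.237 and 0.0235 CPM in PBS, a log2 difference of 1.86 (SE 0.62, adjusted p = 0.121). The IgG library of mouse 75 lay within the PBS range and the other 3 lay above it. For Cd48 the difference between IgG and PBS had an interval of ±2 SE from -0.41 to 0.60 in hippocampus, and for Cd84 from -0.05 to 0.52. For Slamf8 it was far wider, from -0.33 to 2.11.

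The tissues were compared next. In PBS mice no member was called between cortex and hippocampus, against 5.57% of all genes in either direction. No member passed at an unadjusted p below 0.05 either, which 35.9% of all genes did, and DESeq2 called 0. Cd48 had 0.648 ± 0.0506 (SD, n = 5) CPM in PBS cortex and 0.661 ± 0.24 (SD, n = 5) CPM in PBS hippocampus. The difference of the IgLON5 effect between hippocampus and cortex was tested as an interaction, called at an adjusted p below 0.05, and was called for 0 of 8 members and 0% of all genes. No member passed it unadjusted, against 10.6% of all genes, and DESeq2 called 0. For Ly9 the effects differed by 0.00 on the log2 scale, with an interval from -1.07 to 1.06. For Slamf1 they differed by 1.0, from -0.14 to 2.14. The intervals of all members but Cd84 reached at least a 2-fold difference in some direction; for Cd84 the interval ran from -0.19 to 0.63.

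The order of the members by level was read per kilobase of exon. In PBS hippocampus Cd48 at 0.556 ± 0.202 CPM per kb (mean ± SD, n = 5), Cd84 at 0.553 ± 0.0544 and Slamf9 at 0.399 ± 0.0759 led the family, and the spread of Cd48 covered the means of both others. Ly9 followed at 0.0969 ± 0.053 and Slamf8 at 0.0514 ± 0.0248, with overlapping spreads. Slamf7, Slamf1 and Slamf6 lay at 0.0238 ± 0.0175, 0.0186 ± 0.00531 and 0.0139 ± 0.00703 CPM per kb and overlapped.
In IgLON5 hippocampus the order by mean was headed by Slamf9 at 3.45 ± 2.24 CPM per kb (n = 4) and Cd48 at 2.75 ± 0.433, whose spreads overlapped. Slamf9 had 6.69 CPM per kb in mouse 9 and 1.72 to 3.13 in the other IgLON5 hippocampi. It was above Cd48 in mice 9 and 16 and below it in mice 8 and 17. Cd84 at 1.45 ± 0.334, Ly9 at 1.07 ± 0.174 and Slamf8 at 0.853 ± 0.542 came next, and the spread of Slamf8 reached both others. Slamf7 followed at 0.231 ± 0.17 and Slamf6 at 0.105 ± 0.0369, which overlapped. Slamf1 was last at 0.0306 ± 0.00351. IgLON5 cortex had the same leader, with Slamf9 at 3.02 ± 2.17 and Cd48 at 2.08 ± 0.598 CPM per kb. Exon length was the union over all annotated transcripts, 10832 bp for Slamf6 and 1189 bp for Cd48.

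The 4 IgLON5 mice did not rank alike for all members. Slamf8 and Slamf9 were highest in mouse 9 in both tissues, at 17.5 and 19.5 times the IgG mean for Slamf8 and 13 and 9.92 times for Slamf9. In mouse 17 the same ratios were 3.18 and 4.43 for Slamf8 and 3.34 and 3.14 for Slamf9. Slamf6 was ordered 8, 9, 16, 17 from high to low in both tissues. Slamf7 was highest in mouse 17 in hippocampus, at 5.07 times the IgG mean, and in mouse 8 in cortex, at 7.28 times. Its ratio in mouse 9 was 0.578 in hippocampus and 4.91 in cortex, so that the low value there was seen in 1 tissue. Over the deviations of all 27 libraries from their group means, Slamf8 and Slamf9 correlated at r = 0.684, the highest of the 28 pairs, and Cd84 and Slamf7 at r = -0.364, the lowest. These deviations share library depth, and hippocampus and cortex of a number may come from the same mouse.

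**Figure D3:**
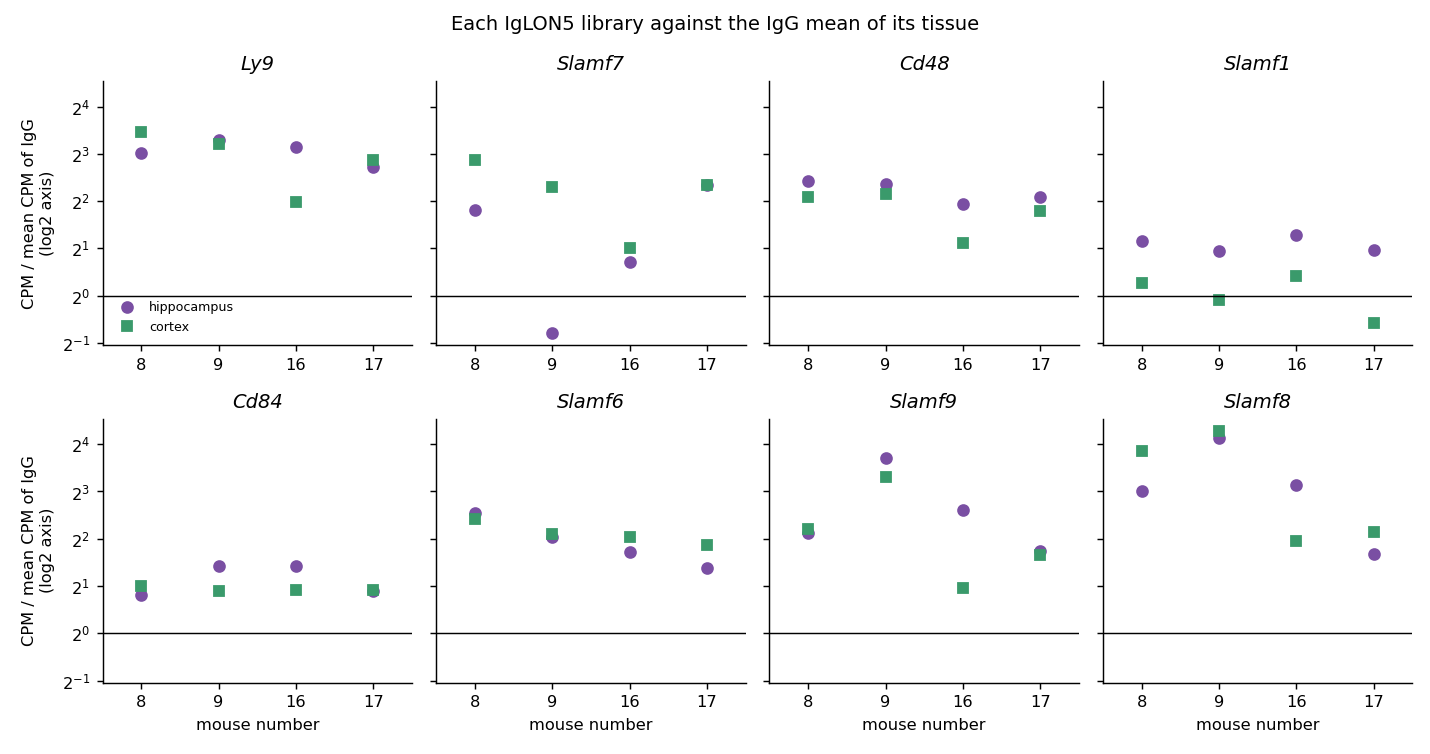
CPM of each IgLON5 library divided by the mean CPM of the IgG libraries of its tissue (log2 axis), by mouse number, in hippocampus (circles) and cortex (squares). Mouse 9 is the highest for Slamf8 and Slamf9 in both tissues, and its hippocampus is the only IgLON5 library below 1 for Slamf7.

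Several marker lists of other cell types differed between the groups as well, and their highest mouse was not the same in every list. Beside the counts of called markers below, 2.21% of all genes tested were called higher against IgG in hippocampus and 2.14% in cortex. The 10 microglial markers summed to 365 to 415 CPM in IgG hippocampus and 453 to 766 CPM in IgLON5 hippocampus; 0 of 10 were called there, although 5 had an adjusted p below 0.05. In cortex the ranges were 368 to 454 and 434 to 478 CPM, with 0 of 10 called. The 7 pan-myeloid markers summed to 102 to 125 CPM in IgG and 238 to 458 CPM in IgLON5 hippocampus (6 of 7 called) and in cortex they summed to 95.9 to 126 CPM in IgG and 216 to 319.6 CPM in IgLON5 (5 of 7). Their sum was highest in mouse 9 in both tissues, at 458 CPM in hippocampus and 319.6 CPM in cortex.
Leukocyte markers were also called, and their sums in the control libraries were low. Whether they would have passed the count filter in the control libraries alone was not examined. The 5 monocyte markers summed to 1.2 to 3.42 CPM in IgG and 3.32 to 21.4 CPM in IgLON5 hippocampus (1 of 5 called), and to 0.876 to 2.03 and 2.67 to 32.2 CPM in cortex (5 of 5), with mouse 8 highest in both tissues. Of the 8 B cell markers, 7 were tested and 5 were called in hippocampus and 3 in cortex, with sums of 2.21 to 2.8 against 5.01 to 12.1 CPM in hippocampus and 2.0 to 2.98 against 3.79 to 9.54 CPM in cortex. The 6 plasma cell markers, of which 5 were tested and 1 was called in each tissue, summed to 4.08 to 5.38 CPM in IgG and 8.56 to 89.7 CPM in IgLON5 hippocampus. In cortex these sums were 4.04 to 5.18 and 8.95 to 36.9 CPM. The plasma cell sum was lowest in mouse 9 (8.56 CPM in hippocampus and 8.95 in cortex) and highest in mouse 17 (89.7 and 36.9), which for hippocampus were also the lowest and the highest mouse for Slamf7. In cortex Slamf7 was lowest in mouse 16 and highest in mouse 8.
Of 8 T cell markers, 5 were tested and 1 was called in each tissue, with sums of 1.08 to 2.01 CPM in IgG and 1.84 to 3.99 CPM in IgLON5 hippocampus and of 3.01 to 5.7 and 3.39 to 5.02 CPM in cortex. Of 6 NK cell markers, 3 were tested, with 0 called in hippocampus and 1 in cortex, and sums of 0.54 to 1.34 against 1.66 to 3.25 CPM and 0.156 to 0.772 against 0.714 to 3.78 CPM. Among 8 border macrophage markers 1 was called higher and 1 lower in each tissue, among 5 tested dendritic cell markers 1 was called higher in each, and among 4 tested neutrophil markers 0 were called. Over all lists, 1 marker was at 0 in all libraries of a group, the neutrophil marker Ly6g in IgLON5 cortex. The 6 neuronal markers summed to 4827 to 5147 CPM in IgLON5 hippocampus, below all IgG hippocampi (5149.6 to 6101 CPM), and to 5890.4 to 6831 against 6623 to 7379.6 CPM in cortex, with 0 of 6 called in either tissue.
Markers of the tissue regions were read in the same way, with 0 called between IgLON5 and IgG. In hippocampus, 5 hippocampal markers summed to 219 to 298 CPM in IgLON5, 77.6 to 273 in IgG and 177 to 393 in PBS. There, 5 cortical markers summed to 166 to 237, 220.3 to 348 and 163 to 248 CPM, and the IgLON5 range lay mostly below that of IgG and within that of PBS. In cortex the cortical markers summed to 422 to 612 CPM in IgLON5 and 522 to 679 in IgG. The part of these cell types and regions in the members' differences was not tested.

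The members were also set against the microglial list within each library. The log2 CPM of a member minus the mean log2 CPM of the 10 microglial markers was higher in IgLON5 than in IgG hippocampus by 2.73 for Ly9, 2.63 for Slamf8, 2.16 for Slamf9, 1.86 for Cd48, 1.5 for Slamf6, 0.79 for Cd84, 0.82 for Slamf7 and 0.65 for Slamf1. In cortex the differences were 2.93 for Slamf8, 2.91 for Ly9, 2.15 for Slamf7, 2.12 for Slamf6, 2.04 for Slamf9, 1.77 for Cd48, 0.94 for Cd84 and 0.05 for Slamf1. The markers themselves did not move alike, with log2 differences between IgLON5 and IgG hippocampus of -0.37 for P2ry12 and 0.89 for Cx3cr1. The median log2 difference of the microglial list from IgG was 0.48 in hippocampus and 0.09 in cortex. That of the pan-myeloid list was 1.78 and 1.47, and the members were not set against that list. The differences of the members from the microglial list are a description without a test. The part of microglial or pan-myeloid amount in them was not tested.

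The genes between and around the members served as a local comparison. Of 41 other annotated genes in the interval from Ly9 to Slamf8, 21 were tested. In each tissue 1 was called higher in IgLON5 than in IgG, against 2.21% of all genes tested in hippocampus and 2.14% in cortex. It was Cd244a, the receptor for Cd48, which overlaps Ly9 and belongs to the same wider family, at 2.74 (SE 0.84, adjusted p = 0.0306) in hippocampus and 3.0 (SE 0.74, adjusted p = 0.00816) in cortex. The control libraries held 0 to 7 counts of Cd244a, which entered the test through the IgLON5 libraries alone. The median log2 difference of the 21 genes was 0.06 in hippocampus and 0.00 in cortex. Against PBS, Gm10521 was called in hippocampus as well. Its difference from IgG was 1.10 (SE 0.37, adjusted p = 0.0668) in hippocampus and 1.22 (SE 0.42, adjusted p = 0.104) in cortex. In the 522187-bp gap, where 0 genes were called against IgG, the hippocampal values included 0.08 (SE 0.05, adjusted p = 0.357) for Ncstn, a subunit of gamma-secretase, and 0.01 (SE 0.05, adjusted p = 0.923) for Copa, a coat protein of transport vesicles. They also included 0.68 (SE 0.29, adjusted p = 0.169) for Nhlh1, a neuronal transcription factor, and 0.42 (SE 0.14, adjusted p = 0.0653) for the antisense gene Gm36937. Tagln2, an actin-binding protein encoded between Slamf9 and Slamf8, had 0.74 (SE 0.25, adjusted p = 0.0793) in hippocampus and 0.87 (SE 0.24, adjusted p = 0.0415) in cortex, the latter under a fold of 2.

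**Figure D4:**
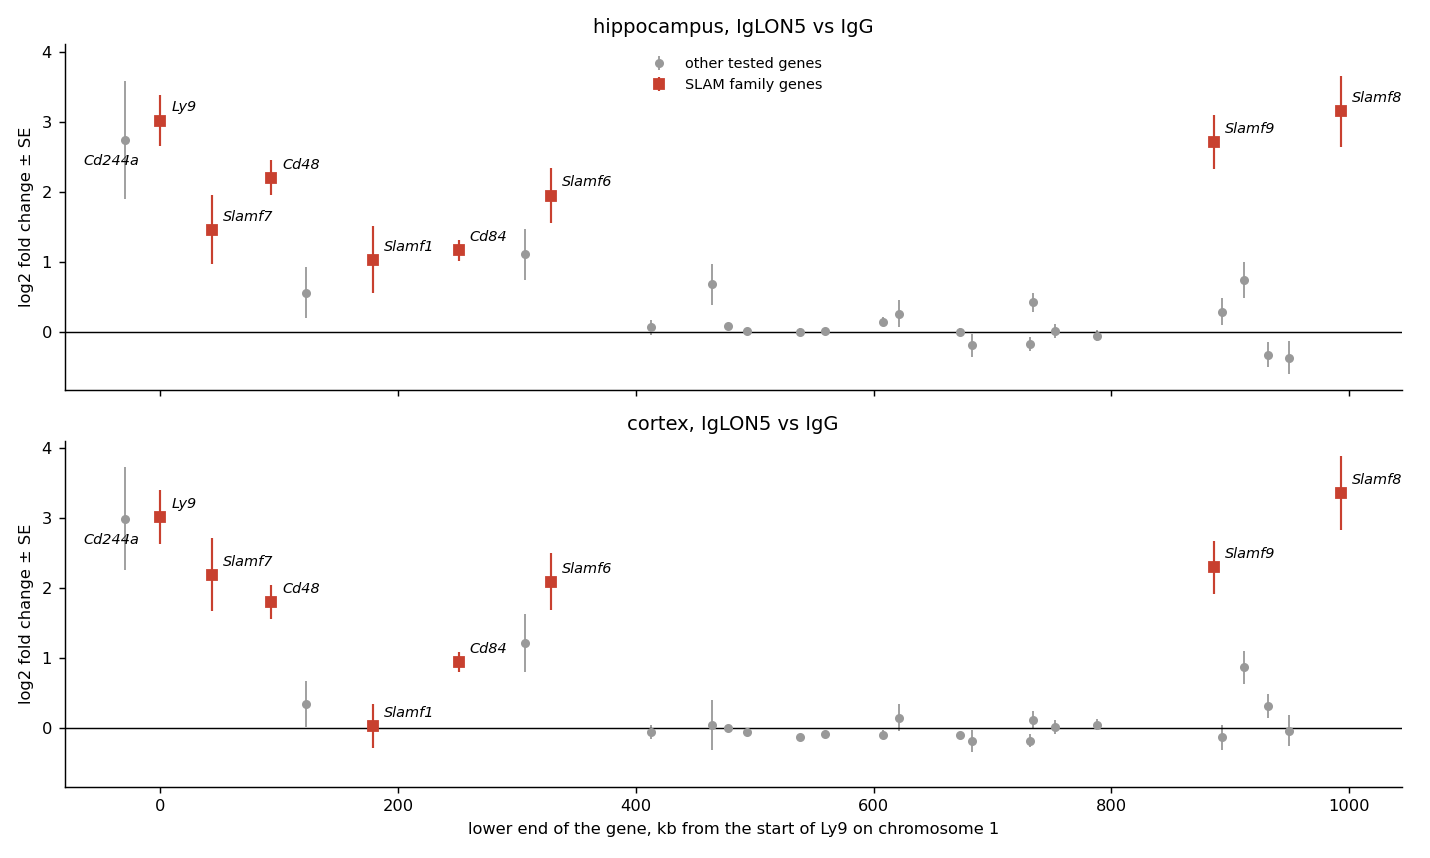
Log2 fold change of IgLON5 against IgG, with its SE, for the 8 SLAM family genes (squares) and 21 other tested genes (circles), by distance of the gene's lower end from that of Ly9 in kb. The members stand at both ends of the interval, Cd244a is the only other gene called, and the 21 other genes have a median of 0.06 in hippocampus and 0.00 in cortex.

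A list of 26 genes of SLAM signalling and SLAM-dependent phagocytosis was then read from the same fit, of which 23 were tested. In hippocampus 12 were called higher in IgLON5 than in IgG, against 2.21% of all genes tested, and 0 lower, and the median log2 difference was 1.05. In cortex 10 were called higher, against 2.14% of all genes, and 0 lower, with a median of 0.77. Against PBS the numbers were 11 in hippocampus (2.56% of all genes) and 11 in cortex (2.24%), again with 0 lower. Cd244a and Sh2d1b1 are in each of these counts and passed the filter through the IgLON5 libraries alone. Of the 21 genes that passed in the control libraries alone, 10 were called against IgG in hippocampus and 8 in cortex, and 9 against PBS in each tissue. Several of these genes are expressed in all myeloid cells, and the list was chosen with results of these data known.

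Among receptors and adapters, Cd244a and the adapter Sh2d1b1 (EAT-2) were called in both tissues, Sh2d1b1 at 2.0 (adjusted p = 0.0373) in hippocampus and 2.82 (adjusted p = 0.0168) in cortex. Both were scarce, with 3 to 20 counts per IgLON5 hippocampus for Cd244a and 4 to 10 for Sh2d1b1. No control library reached 10 counts of either, so both entered the test through the IgLON5 libraries alone. Cd2, the adapter Sh2d1a (SAP) and Sh2d1b2 were under the filter. Cd2 had 3 to 22 counts per IgLON5 hippocampus and 0 to 8 per IgG hippocampus. Sh2d1a had 1 to 3 and 2 to 5 counts, and Sh2d1b2 had 0 to 1 and 0, and these adapters were not tested.
Of 8 kinases and effectors, 3 were called in hippocampus, namely the Src-family kinase Lyn (1.31, adjusted p = 1.09e-04), the exchange factor Vav1 (1.75, adjusted p = 1.75e-05) and the phospholipase Plcg2 (1.05, adjusted p = 7.32e-05). In cortex Lyn and Vav1 were called. The T cell kinase Lck stood at 0.45 (adjusted p = 0.221) in hippocampus, and Fyn, which brain cells express widely, at 0.11 (adjusted p = 0.226). The phosphatase Ptpn6 (SHP-1) was called at 2.14 (adjusted p = 1.00e-06) in hippocampus and 1.81 (adjusted p = 9.15e-06) in cortex, whereas Ptpn11 (SHP-2) stood at -0.03 (adjusted p = 0.713) and -0.08 (adjusted p = 0.367). The lipid phosphatase Inpp5d (SHIP-1) stood at 0.84 (adjusted p = 1.13e-04) in hippocampus, below a fold of 2.
Slamf7 was not called against IgG in hippocampus, and its signalling was not tested. The complex through which Slamf7 acts in phagocytosis was called almost throughout. Its integrin chains Itgam (1.26, adjusted p = 2.52e-04) and Itgb2 (1.77, adjusted p = 6.70e-07), the signalling chains Fcer1g (2.0, adjusted p = 1.75e-05) and Tyrobp (1.29, adjusted p = 1.14e-05) and the kinase Syk (1.13, adjusted p = 9.02e-04) were all higher in hippocampus. In cortex 4 of the 5 were called, and Tyrobp had 0.92 (adjusted p = 4.71e-04). Of the phagosome partners of Slamf1, the oxidase subunit Cybb was called at 2.66 (adjusted p = 0.00295) in hippocampus and 3.74 (adjusted p = 7.00e-05) in cortex. The autophagy genes Becn1, Pik3c3, Pik3r4 and Uvrag were not called, with log2 differences from IgG between -0.01 and 0.07 in hippocampus.

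For each member the genes with the most similar log2 CPM over the 27 libraries were listed. For Slamf9 it was Adgre1 (r = 0.977), the macrophage surface protein known as F4/80, followed by Cd52 (r = 0.972). For Slamf8 it was Cd52 (r = 0.971), a small surface protein of leukocytes, followed by Vav1 (r = 0.968). Ly9 was nearest to Myo1f (r = 0.951), a leukocyte myosin, and Cd48 to H2-D1 (r = 0.951), an MHC class I gene. Cd84 was nearest to the lysosomal protease Ctss (r = 0.949) and the complement genes C1qb (r = 0.945) and C1qa (r = 0.944). Slamf6 was nearest to Apobec1 (r = 0.895), and Slamf7 to the MHC class II invariant chain Cd74 (r = 0.878) and the class II genes H2-Ab1 (r = 0.877) and H2-Eb1 (r = 0.877). Slamf1 had the weakest leader, Ly6e (r = 0.813). These correlations include the treatment difference that the genes share.
Over deviations from the group means, which leave that difference out, the leaders were Ly86 (r = 0.884) for Slamf9, Lpcat2 (r = 0.852) for Slamf8, P2ry10 (r = 0.801) for Slamf7, Snx5 (r = 0.79) for Cd84, 9330175E14Rik (r = 0.773) for Cd48, Myo1f (r = 0.756) for Ly9, Samd14 (r = 0.738) for Slamf1 and Sctr (r = 0.726) for Slamf6. Adgre1 was among the first 3 genes for Slamf9 on both measures, Vav1 for Slamf8 and Myo1f for Ly9, while the lists of Cd84, Cd48, Slamf7, Slamf1 and Slamf6 shared no gene between the measures. The libraries share depth and origin, so these values are given as a description.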

How the data were processed

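Raw counts per gene, 1 column for each of 27 libraries, were used as the authors deposited them. Per the study's methods, RNA from contralateral hippocampus and cortex was sequenced in paired-end mode and aligned to GRCm38 with STAR at default settings. The counting program, annotation release and strand setting are not given in the sources used here. Ensembl IDs were matched without version to GENCODE (55227 of 55487). The 20271 genes that reached 10 counts in 4 or more libraries were tested with edgeR 4.0.16 (TMM, glmQLFit, glmQLFTest, 6 groups of tissue and treatment, no covariates) in R 4.3.3, with Benjamini-Hochberg adjustment over all of them. A gene was called at an adjusted p below 0.05 and a fold above 2, and the interaction at the adjusted p alone. SEs came from the quasi-likelihood fit and intervals are ±2 SE. CPM are TMM-scaled, and correlations used log2 CPM with a prior count of 1. The test was checked on simulated data. Alternatives were DESeq2 1.42.0, limma 3.58.1 with voom and the mouse number as a block, RLE size factors, other count filters, the compared groups alone, mice 8 to 17 alone and leaving out each library. The members and lists were chosen with earlier results of these data known. The 8 members, the signalling list, their neighbours on the chromosome, and the 3 most similar genes by log2 CPM and by deviation were the genes to be named. The labels do not say that replicates came from separate mice beyond their numbers, so p-values measure the spread between these libraries. Libraries of a group differed by more than counting noise in all 48 pairs (smallest chi-square per degree of freedom 4.82).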

Additional observations from a re-analysis of the deposited data

Results flagged for a closer look

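In 48 combinations of member and group, 1 library stood apart by Dixon's test at 95%, where chance gives about 1 in 20. It was the Ly9 level of PBS mouse 33 in cortex, at 0.0672 CPM (2 counts), against 0.219 to 0.266 CPM in the other 4 libraries.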

How the results depend on the processing

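A filter of 10 counts in every library left 2 members to test, Cd84 and Slamf9, so that 2 were called higher against IgG and 2 against PBS in hippocampus, and 1 against IgG and 2 against PBS in cortex (1.36%, 1.6%, 1.27% and 1.4% of the 15430 genes left). With mice 8 to 17 alone 3 members were called against IgG in hippocampus (0.242% of all genes) and 2 in cortex (0.0444%); fewer libraries were then fitted. Of 1024 refits of single members, 1011 kept their side of the threshold, 9 lost a call, 4 gained a call and 0 called values changed sign. These refits include comparisons without a call in the main fit, which had none to lose, and fits that left out a single library. With mice 8 to 17 alone, Cd84, Slamf8 and Slamf9 lost their call against IgG in hippocampus. In cortex Slamf6, Slamf7, Slamf8 and Slamf9 lost theirs. The counts of members called were within 1.5 times of the main values with DESeq2, RLE size factors, no count filter, no fold threshold, the compared groups alone and each library left out.

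The labels give hippocampus and cortex the same mouse numbers without saying that they are the same animal. Deviations of same-numbered libraries from their group means correlated at -0.0498 to 0.443 (median 0.194, above 0.1 in 8 of 13 pairs). With the mouse number as a replicate block, limma called 6 members against IgG and 7 against PBS in hippocampus, 6 and 7 in cortex (1.87%, 2.05%, 1.25% and 1.42% of all genes), and 0 in the other comparisons, and edgeR with the block called 0 members between tissues in PBS and 0 in the interaction. The block changed no call.

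Depth limits Slamf1, Slamf6, Slamf7 and Slamf8, with 1 to 29 counts in each control library of either tissue, and Ly9, with 2 to 14 in each control cortex.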
